A study of Mus musculus with 4 samples.

Results

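The genes described here encode proteins of the piRNA pathway, and were chosen by name. The 10 members are *Piwil1*, *Piwil2*, *Piwil4*, *Mov10l1*, *Mael*, *Ddx4*, *Asz1*, *Gtsf1*, *Pld6* and *Fkbp6*. Of these, 8 have a row among the 12415 gene exon sense features in the deposited table of testicular read counts, and each of the 8 also has a gene intron sense row. No row carries the symbol of *Piwil4* or *Gtsf1* or a synonym given for them by RefSeq, and these 2 genes were not analysed here.

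Testicular total RNA was sequenced from adult mice at postnatal day 60 on the C57Bl/6J background, with 2 libraries from *Nef-sp*-/- males, called knockout below, and 2 from *Nef-sp*+/- males, called control. *Nef-sp* encodes a testis-specific nuclear exoribonuclease, and its knockout allele, made with Cas9 nickase and paired guide RNAs, is a short out-of-frame deletion. The control males carry the same allele in 1 copy, so that no wild-type library enters the comparison, and the mutant line descends from founder females crossed with C57Bl/6J Rj males. Ribosomal RNA was removed before strand-specific libraries were made, and the number of animals behind each library is not given in the sources used here.

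The piRNA pathway is a small RNA defense system of the germline. PIWI proteins, which are Argonaute proteins of germ cells, are loaded with piRNAs and are guided by them to transposon transcripts, which are cut, and to transposon copies in the genome, which become methylated in fetal male germ cells. In the adult testis, abundant piRNAs are made in pachytene spermatocytes and persist in round spermatids, and most proteins of the pathway gather in cytoplasmic germ granules next to mitochondria. Loss of most of these genes in mice leads to male sterility. The mature ends of piRNAs carry a 2′-O-methyl group, a modification that inhibits recombinant human NEF-sp, and the comparison of genotypes asks whether loss of NEF-sp changes the testicular RNAs, here those that encode the pathway.

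Each listed member was placed on mm9, the build of the deposited table, through the GENCODE annotation on that build. *Piwil1* (ENSMUSG00000029423) lies at chr5:129242121-129261349 on the plus strand, and *Piwil2* (ENSMUSG00000033644) at chr14:70772287-70828901 on the minus strand. *Mov10l1* (ENSMUSG00000015365) lies at chr15:88813339-88885582 on the plus strand and *Ddx4* (ENSMUSG00000021758) at chr13:113388541-113442518 on the minus strand. *Mael* (ENSMUSG00000040629) lies at chr1:168131516-168168875, *Asz1* (ENSMUSG00000010796) at chr6:18000964-18059061, *Pld6* (ENSMUSG00000043648) at chr11:59597399-59601147 and *Fkbp6* (ENSMUSG00000040013) at chr5:135767574-135825895, all on the minus strand. No exon of these 8 genes overlaps an annotated exon of another gene on either strand. The reads were kept only where they matched the genome perfectly, and 0 of the 4864 stretches of 50 bases in the *Piwil2* transcript also occur in a transcript of another gene. The share of such stretches was 0.077% for *Piwil1* and 0.583% for *Fkbp6*, and it was 0 for the other members, as counted on protein-coding transcripts, and none was shared between *Piwil1* and *Piwil2*.

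The start regions of 4 members are shown because their RefSeq start adjoins the GENCODE start of the gene. Promoters of germline genes of this kind are known to be shut in somatic cells by CpG methylation, which was not measured here. Each sequence holds the 250 bases before the start, from the RefSeq table of GRCm38.p6, and was placed on mm9 by its only exact match on the chromosome. CpG dinucleotides are in capitals.
Mael: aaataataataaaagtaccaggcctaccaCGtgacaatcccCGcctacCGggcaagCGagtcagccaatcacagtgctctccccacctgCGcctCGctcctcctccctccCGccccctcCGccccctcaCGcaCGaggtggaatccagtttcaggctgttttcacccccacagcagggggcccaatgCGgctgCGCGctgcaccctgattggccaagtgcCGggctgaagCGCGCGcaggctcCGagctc
Ddx4: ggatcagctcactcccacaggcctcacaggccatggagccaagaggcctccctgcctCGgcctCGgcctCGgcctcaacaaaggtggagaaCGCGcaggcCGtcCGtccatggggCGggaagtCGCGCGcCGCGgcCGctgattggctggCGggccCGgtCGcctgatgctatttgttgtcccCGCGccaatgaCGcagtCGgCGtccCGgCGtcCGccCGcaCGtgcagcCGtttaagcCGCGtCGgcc
Piwil1: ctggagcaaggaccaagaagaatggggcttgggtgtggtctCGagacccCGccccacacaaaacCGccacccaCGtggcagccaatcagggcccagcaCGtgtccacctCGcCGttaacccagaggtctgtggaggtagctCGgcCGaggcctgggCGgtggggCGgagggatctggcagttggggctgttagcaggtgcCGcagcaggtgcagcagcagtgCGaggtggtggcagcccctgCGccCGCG
Asz1: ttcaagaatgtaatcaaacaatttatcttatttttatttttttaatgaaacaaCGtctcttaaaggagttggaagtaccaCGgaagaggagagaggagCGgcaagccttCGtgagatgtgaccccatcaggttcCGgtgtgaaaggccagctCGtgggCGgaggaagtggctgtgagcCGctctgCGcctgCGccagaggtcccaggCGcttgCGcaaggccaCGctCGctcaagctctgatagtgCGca
They lie at chr1:168168876-168169125 (minus strand), chr13:113442519-113442768 (minus strand), chr5:129241871-129242120 (plus strand) and chr6:18059062-18059311 (minus strand). The *Ddx4* sequence holds 31 CpG dinucleotides, that of *Mael* 18, that of *Piwil1* 16 and that of *Asz1* 15. Over the 32851 promoters of the table, the median was 6 and the upper quartile 16. The RefSeq table has an entry for 9 of the 10 members, the exception being *Piwil2*. The motif AACNGTT, a form of the site bound by MYB factors such as *Mybl1*, reads the same on either strand. It occurs before a start of 1 of these 9 genes, *Piwil4*, and before 4.27% of the 27025 genes in the table. That match lies in the entry at chr9:14522832-14523081, inside the gene, and the *Piwil4* entry at chr9:14545117-14545366 has 0 matches. Other forms of the site were not searched for.

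The table holds 20659865 to 34442517 reads per library, of which 15815159 to 26618821 are gene exon sense reads, and the deepest library is control replicate 2. Counts below are normalized, that is, divided by the library's effective size relative to the mean of the 4 libraries. *Nef-sp* itself (listed as 2610020H08Rik), which checks the labels, had normalized exon sense counts of 1843 and 1693 in the control libraries and 407 and 497 in the knockout libraries. It was the only one of 10728 tested exon sense features with an adjusted p below 0.05, or 0.00932% of them. Markers of the testis were present: the summed spermatocyte markers ranged from 105947 to 111398 normalized counts over the libraries, with all 6 genes listed, and the 6 markers of elongating spermatids from 342283 to 431791. Of the other cell types, the summed markers of Leydig cells ranged from 13959 to 17515, those of round spermatids from 25631 to 26775, those of Sertoli cells from 16207 to 16914, those of peritubular myoid cells from 1210.3 to 1394, those of macrophages from 84.0 to 95.1 and those of spermatogonia from 961 to 1117. Blood was represented by 1 listed gene with 10.6 to 26.1 normalized counts. Not listed were *Rhox5*, *Cd163* and *Hba-a1*, and *Fshr* of Sertoli cells was at 0 in 1 library. Some sums came mostly from 1 gene. *Ldhc* had 92857 to 98792 normalized counts in the spermatocyte sum, and *Clu* 15567 to 16254 in that of Sertoli cells. *Uchl1* had 634 to 813 in that of spermatogonia, where *Zbtb16* had 1 to 2 and *Gfra1* 5 to 9 raw reads per library. Control replicate 1 stood apart in the elongating spermatid markers, with 80.5% of the mean of the other libraries. In whole testis, fewer cells of a type and less RNA per cell cannot be told apart.

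The listed members spanned a wide range of levels in the adult testis, with *Mael* far above the rest and *Asz1* lowest. Levels are compared between genes as normalized exon sense counts per kb of annotated exon, averaged over all 4 libraries. *Mael*, a germ granule protein needed for piRNA production and transposon silencing, had 17304 ± 196 (SD, n = 4) counts per kb, above 99.7% of the 11414 exon sense features that have a length. *Ddx4*, the germ cell RNA helicase known as mouse vasa homolog, followed with 4113 ± 118 (SD, n = 4). The PIWI protein *Piwil1* (MIWI) had 1629 ± 123 and *Piwil2* (MILI) 1227 ± 114 (SD, n = 4 each). *Mov10l1*, the helicase that feeds precursor transcripts into the pathway, had 530.1 ± 51.2, and *Pld6*, the mitochondrial nuclease or phospholipase also called Zucchini, had 527.0 ± 17.6 (SD, n = 4 each). *Fkbp6*, a co-chaperone that acts with HSP90 in PIWI loading, had 341.9 ± 23.5, and *Asz1* (GASZ), a scaffold on the mitochondrial surface, had 191.5 ± 5.99 (SD, n = 4 each). The libraries of *Mov10l1* and *Pld6* overlapped, from 483 to 575 and from 502 to 542 counts per kb, so their order is not resolved. No other neighbors in this order overlapped in any library. The median over all features with a length was 87.5 counts per kb, below each listed member.

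**Figure D1:**
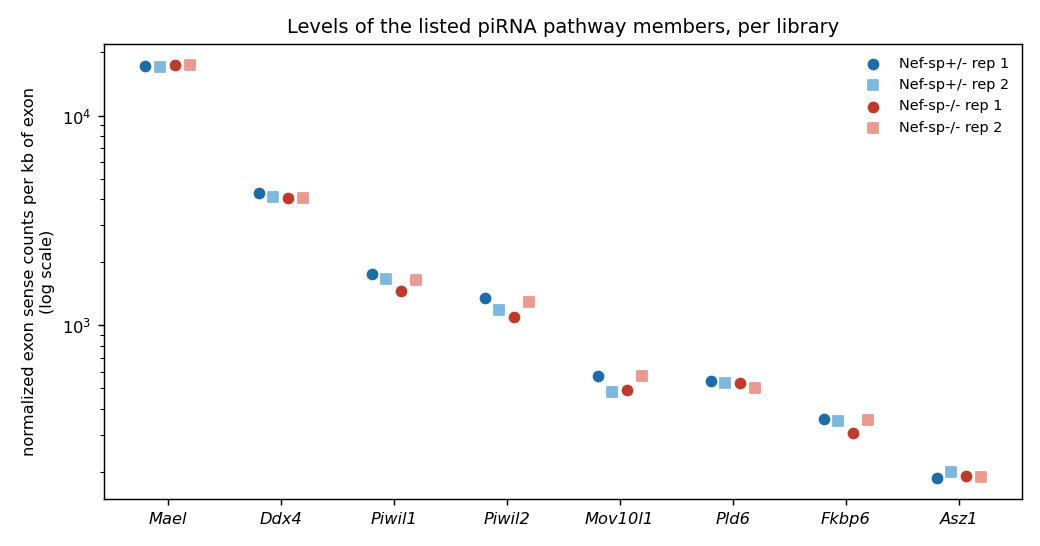
Normalized exon sense counts per kb of annotated exon (log scale) for the 8 listed members, ordered by their mean; each point is 1 library, blue for control (*Nef-sp*+/-) and red for knockout (*Nef-sp*-/-), circles for replicate 1 and squares for replicate 2. *Mael* lies between 17042 and 17489 counts per kb and *Asz1* between 186 and 200, while the points of the genotypes lie close together in each gene.

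No member passed the test between genotypes in exon sense reads. Of the 8 listed members, all passed the expression filter, and 0 had an adjusted p below 0.05 in edgeR's quasi-likelihood test, with 0.00932% of all features called. At an unadjusted p below 0.05 there were also 0 of 8, against 4.8% of all features. When scaled by the total of the table, *Piwil1* alone of the members passed that mark in edgeR, as did 573 of all 10728 features. DESeq2 called 0 of the 8, as it called 0.0161% of its 12415 features, and had 0 of the 8 at an unadjusted p below 0.05, against 1.14%. The adjusted p from edgeR ran from 0.954 to 0.992. The members had a median log2 fold change, knockout over control, of −0.05, with a range from −0.14 to 0.02, while that of all features tested was −0.0002. In 6 of the 8 members the fold change was below 0, against 50.1% of all features. The fold change was smaller than the larger of the gaps between replicates in 7 of the 8, against 78.2% of all features.

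Among the PIWI proteins, *Piwil1*, which binds pachytene piRNAs and cuts their targets, had normalized counts of 6934 and 6544 in control and 5767 and 6457 in knockout testes. Both knockout libraries were below both control libraries, although knockout replicate 2 lay close to control replicate 2. The means were 6739 ± 276 and 6112 ± 488 (SD, n = 2 each), which gave a log2 fold change of −0.14 (SE, the standard error, 0.0689, unadjusted p = 0.067, adjusted p = 0.954 from edgeR), the largest in size among the members. Its 95% interval runs from −18.4% to 0.815% relative to control, and those given as percentages below are on the same scale. Without knockout replicate 1, the log2 fold change was −0.06, and without knockout replicate 2 it was −0.22. *Piwil2*, the PIWI protein present from fetal germ cells to round spermatids, had 6609.7 and 5815 in control and 5349 and 6345 in knockout libraries. The genotypes overlapped, and the lowest and the highest of these libraries were replicates 1 of the 2 genotypes. The log2 fold change was −0.09 (SE 0.0871 and adjusted p = 0.956), with a 95% interval from −17.6% to 7.62%, and it was 0.03 without knockout replicate 1.

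The helicases differed in how closely the libraries followed each other. *Ddx4* had 12208 and 11673 normalized counts in control and 11509 and 11486 in knockout libraries, a log2 fold change of −0.05 (SE 0.0587 and adjusted p = 0.956). Both knockout libraries were lower, by less than the gap between the control libraries. *Mov10l1* had 2422 and 2035 in control and 2060.2 and 2421 in knockout libraries, so that each genotype held a high and a low library of nearly the same value. The log2 fold change was 0.01 (SE 0.0938 and adjusted p = 0.992), with a 95% interval from −12.6% to 16.4%, and it was −0.01 with scaling by the total of the table. Libraries of the same genotype differed by 0.25 in control and 0.23 in knockout on the log2 scale. Without control replicate 1 the log2 fold change was 0.14, and without control replicate 2 it was −0.11.

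Of the genes for proteins of the mitochondrial surface, *Asz1* had 527, 565, 542 and 532 normalized counts in control replicates 1 and 2 and knockout replicates 1 and 2, with both knockout values between those of control. The log2 fold change was −0.03 (SE 0.0761 and adjusted p = 0.986), and 0.03 without control replicate 2. *Pld6* had 953, 935, 934 and 882 in the same order, and knockout replicate 2 was the lowest library. Its log2 fold change was −0.06 (SE 0.067 and adjusted p = 0.956), with a 95% interval from −13.1% to 6.64%.

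Of the PIWI cofactors and granule proteins, *Fkbp6* had 619 and 603 normalized counts in control and 531 and 612 in knockout libraries. Only knockout replicate 1 was set off from the rest, and the log2 fold change was −0.10 (SE 0.0829 and adjusted p = 0.956), and 0.003 without knockout replicate 1. *Mael* had 26708 and 26347 in control and 27038 and 26915 in knockout libraries, and both knockout libraries were above both control libraries by a small margin. The fold change was 0.02 on the log2 scale (SE 0.0582 and adjusted p = 0.984), with a 95% interval from −6.97% to 11.2%, and it was −0.0003 with scaling by the total of the table. In all, the genotypes did not overlap in 4 of the 8 members, with knockout lower in *Piwil1*, *Ddx4* and *Pld6* and higher in *Mael*, while 34.5% of all exon sense features did not overlap, 18.1% with knockout lower and 16.4% with it higher. The summed Leydig cell markers were also lower in both knockout libraries, 16565 and 13959 against 17515 and 17387, with 0 of the 6 genes called by edgeR, 2 at an unadjusted p below 0.05 (*Cyp11a1* and *Cyp17a1*, both lower) and a median log2 fold change of 0.09. *Hsd3b1*, *Star*, *Insl3* and *Lhcgr* had log2 fold changes above 0, from 0.08 to 0.18. The summed peritubular myoid cell markers were lower in both knockout libraries too, 1210 and 1324 against 1394 and 1357. Sums higher in both were those of spermatogonia, 1102 and 1117 against 961 and 1091, and of spermatocytes, 111398 and 110600 against 110267 and 105947. The round spermatid markers had a median of −0.03, and *Catsper3* among them had −0.18 (unadjusted p = 0.0329 from edgeR), lower in both knockout libraries. The markers of elongating spermatids had a median log2 fold change of 0.15, with 0 of the 6 genes called and 1, *Tnp1*, at an unadjusted p below 0.05, and *Tnp1* and *Tnp2* were above both control libraries in both knockout libraries. The part of these markers in the values of the members was not tested. Over the 8 members, the 95% intervals reach at most from 0.816-fold to 1.16-fold.

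**Figure D2:**
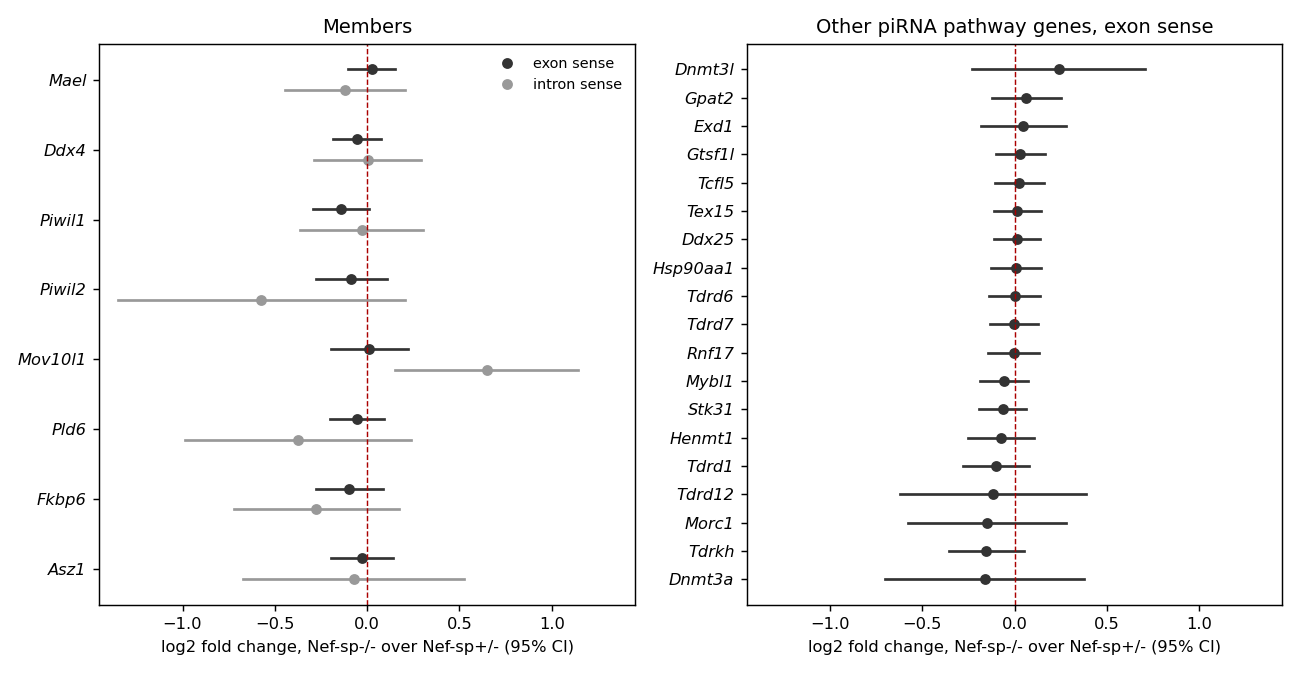
Log2 fold change of knockout over control with its 95% interval from edgeR, for exon and intron sense reads of the 8 listed members (left) and exon sense reads of the 19 other pathway genes (right). Every exon sense interval includes 0, and the only interval that excludes 0 is that of *Mov10l1* intron sense reads, which did not pass the adjustment.

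Intron sense reads, which come largely from unspliced RNA, were sparse in the members, and none of the 8 had an adjusted p below 0.05 (0.9996 in each case from edgeR), with 0.0294% of the 3403 tested features called. DESeq2 called 0.0% of its 6616 features and had 0.151% of them, and 0 of the 8 members, at an unadjusted p below 0.05. In edgeR, *Mov10l1* was the only member with an unadjusted p below 0.05, which 2.35% of all features had. Its intron sense normalized counts were 52.7 and 50.8 in control and 59.5 and 101 in knockout libraries, from raw counts of 47, 69, 50 and 92. Knockout replicate 2 was well above the other libraries, which lay close together. The log2 fold change was 0.65 (SE 0.238 and unadjusted p = 0.0131 from edgeR). With a library left out, it ran from 0.21 without knockout replicate 2 to 0.96 without knockout replicate 1. As a share of the gene's exon and intron sense reads, intron reads made up 2.19% (Wilson 95% interval 1.65 to 2.89) and 2.33% (1.85 to 2.94) in control and 2.73% (2.07 to 3.58) and 4.30% (3.52 to 5.25) in knockout libraries, intervals that cover counting error only.

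The intron share set the members apart from each other more than the genotypes. *Fkbp6* had the highest share, 9.09% to 11.1% over the 4 libraries, and *Piwil2* the lowest, 0.215% to 0.485%, with *Mael* at 0.687% to 0.842%. Over all genes, intron reads made up 2.80% to 3.04% of exon and intron sense reads. *Ddx4* had the most raw intron sense reads, 449 to 692 per library, with normalized intron sense counts of 567, 509, 535 and 542 in control replicates 1 and 2 and knockout replicates 1 and 2, and a log2 fold change of 0.003, which was −0.006 without the expression filter. *Piwil1* had 217, 279, 232 and 257 in the same order, and knockout lay between the control libraries. *Piwil2*, with 10 to 28 raw intron sense reads, had a log2 fold change of −0.57 (SE 0.374), which ran from −0.99 without knockout replicate 2 to −0.21 without control replicate 1, and its intron difference is not resolved at this depth. The genotypes did not overlap in 3 members, with *Fkbp6* and *Mael* lower in knockout (14.5% of all features were) and *Mov10l1* higher (13.5%), or 28.0% of all features in either direction. In 6 of the 8 members the intron sense fold change was below 0, against 47.9% of all features, and in 6 it was smaller than the larger gap between replicates, against 82.4%. For *Asz1*, *Pld6*, *Fkbp6* and *Mael*, the intron sense log2 fold changes lay between −0.37 for *Pld6* and −0.07 for *Asz1*, and that of *Pld6* ran from −0.75 without knockout replicate 1 to −0.0685 without knockout replicate 2. No member has a gene exon antisense row, and *Mov10l1* alone has a gene intron antisense row, with 1, 2, 1 and 1 reads, which is below the filter and was not tested.

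**Figure D3:**
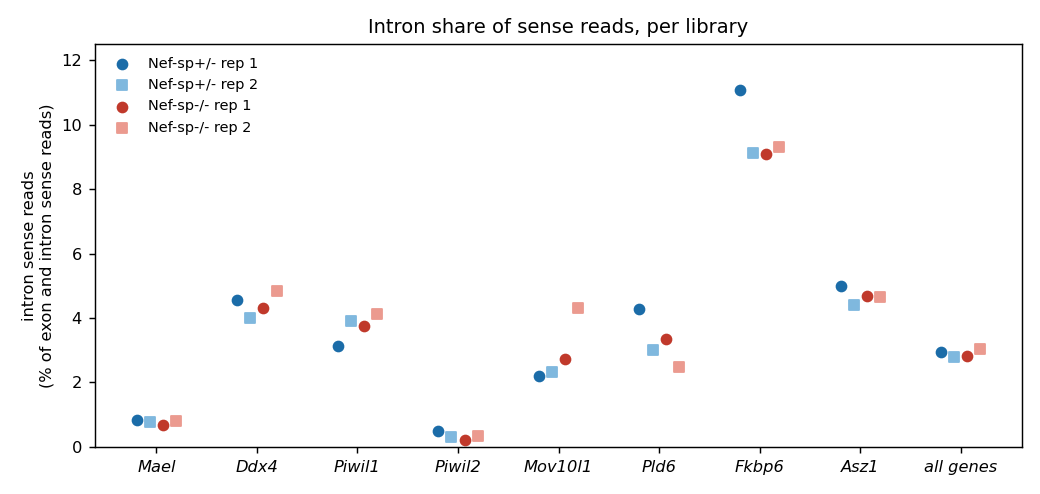
Intron sense reads as a percentage of exon and intron sense reads for the 8 listed members and for all genes together, per library (blue control, red knockout, circles replicate 1, squares replicate 2). *Fkbp6* lies between 9.09% and 11.1% and *Piwil2* between 0.215% and 0.485%, and *Mov10l1* reaches 4.30% in knockout replicate 2 alone.

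The rest of the pathway was read from a list of 24 other genes, of which 19 have an exon sense row, *Henmt1*, *Exd1* and *Gpat2* under older symbols. None of the 19 passed in edgeR (0.00932% of all features did) or had an unadjusted p below 0.05, and DESeq2 had 0 of the 19 by either measure, with 0.0161% of its features called. Their median log2 fold change was −0.004, against −0.0002 over all features, with 11 below and 8 above 0. *Tdrd5*, *Tdrd9*, *Pnldc1*, *Btbd18* and *Spocd1* were not analysed here. The 5 listed genes of piRNA biogenesis and germ granules each had a log2 fold change above 0, between 0.006 and 0.06. Of the 7 listed Tudor domain genes, whose proteins bind methylated arginines of PIWI proteins, each had one below 0, against 50.1% of all features. The values lay between −0.15 and −0.0002, although the sign of *Tdrd6* and *Tdrd7* turned with DESeq2. *Tdrkh*, which tethers PIWI proteins to mitochondria, had the lowest of these, with 322 and 306 normalized counts in control and 281 and 282 in knockout libraries. Its log2 fold change was −0.15 (SE 0.0916 and adjusted p = 0.954), and both knockout libraries were below both control libraries. That held in 3 of the 19 genes, against 18.1% of all exon sense features. Both knockout libraries were above both control libraries in 0 of the 19, against 16.4%. *Tdrd6*, a scaffold of the chromatoid body of spermatids, had 44675 and 41897 in control and 44026 and 42530.4 in knockout libraries, with a log2 fold change of −0.0002, which was 0.003 with the size factors of DESeq2. *Tdrd7*, of the same granule, had a log2 fold change of −0.004, which was 0.0002 with DESeq2.

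*Gtsf1l*, a paralog of *Gtsf1*, *Hsp90aa1*, the chaperone that works with FKBP6, and *Ddx25*, a helicase of the chromatoid body, were the listed genes with the highest levels per kb beside the members, 11571, 10835 and 7587 counts per kb. Their log2 fold changes were 0.03, 0.006 and 0.01, and the sign of the last 2 turned with scaling by the total of the table. *Henmt1*, the methyltransferase that places the 2′-O-methyl group on piRNA ends, had 449 and 489 normalized counts in control and 445 and 450 in knockout libraries, a log2 fold change of −0.08 (SE 0.0814 and adjusted p = 0.956). *Mybl1*, the transcription factor known to drive piRNA precursors and many pathway genes at pachytene, had 3104, 3067, 2906 and 3024 in the same order of libraries and a log2 fold change of −0.06 (adjusted p = 0.956). These 2 genes were named after their values were seen, for their roles. *Dnmt3l* and *Dnmt3a*, which act in DNA methylation of transposons in fetal germ cells, had the most divergent values, log2 fold changes of 0.24 (SE 0.212) and −0.16 (SE 0.244), from 28 to 94 raw reads per library. With a library left out, the value of *Dnmt3l* ran from 0.0165 without knockout replicate 2 to 0.50 without control replicate 2, and that of *Dnmt3a* from −0.54 to 0.14.

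The transposons that the pathway silences were followed through 12 L1 and IAP elements, the families most often derepressed when the pathway is lost. None passed the test, with 0.692% of the 578 repeat sense features called, and none had an unadjusted p below 0.05 in edgeR, as 5.02% of these features did. DESeq2 called 0 of the 12 and 0.429% of its 699 features, and had 0 of the 12 at an unadjusted p below 0.05, against 1.86%. The fold change was below 0 in 2 of the 12, against 48.3%, it was smaller than the larger gap between replicates in 11, against 81.7%, and both knockout libraries were above both control libraries in 2, against 14.0%. The median log2 fold change was 0.07 against 0.005 over all repeat sense features. L1Md_T, the element with most reads, had 29021 and 25409 normalized counts in control and 25848 and 31251 in knockout libraries, a log2 fold change of 0.07 (SE 0.104 and adjusted p = 0.998). L1Md_F2 had one of 0.09 (SE 0.0991) and L1Md_A one of 0.10 (SE 0.107), and the genotypes overlapped in all 3 elements. The sign of all 3 turned without a library, with log2 fold changes of L1Md_T from −0.08 to 0.20 as each was left out in turn. Because L1 elements share sequence, and how reads with more than 1 match were assigned is not given in the sources used here, these elements are not independent of each other.

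The members with the widest spread shared an order of the libraries within each genotype. Control replicate 1 was above replicate 2, and knockout replicate 2 above replicate 1, in *Piwil1*, *Piwil2*, *Mov10l1* and *Fkbp6*, or 4 of the 8 members in exon sense reads, against 28.3% of all features. The order was noticed in these values and is a description. It also held in 5 of the 8 members in intron sense reads, against 29.6% of all features, and in 10 of the 19 other pathway genes, among them 6 of the 7 Tudor domain genes. Some of these were near ties. The control libraries of *Rnf17* had 6946 and 6942 normalized counts and those of *Stk31* 3175 and 3167, and the knockout libraries of *Tdrkh* had 280.6 and 281.6. *Tdrd1*, which binds MILI in the granules between mitochondria, had 5141 and 4577 in control and 4182 and 4863 in knockout libraries. Of the L1 and IAP elements, 11 of 12 had the same order, against 29.9% of all repeat sense features, with medians of 0.19 between the control and 0.26 between the knockout libraries on the log2 scale. Here too there were near ties, with 4567 and 4584 normalized counts in the knockout libraries of IAPEY3-int and 398 and 405 in those of IAPLTR1_Mm. The L1 elements share sequence and are not independent counts. In the spermatocyte markers the order held in 4 of 6, *Sycp1*, *Sycp3*, *Hormad1* and *Spo11*, and in the markers of elongating spermatids in 0 of 6, of which 5 had the opposite order. The part of germ cell composition in these values was not tested.

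**Figure D4:**
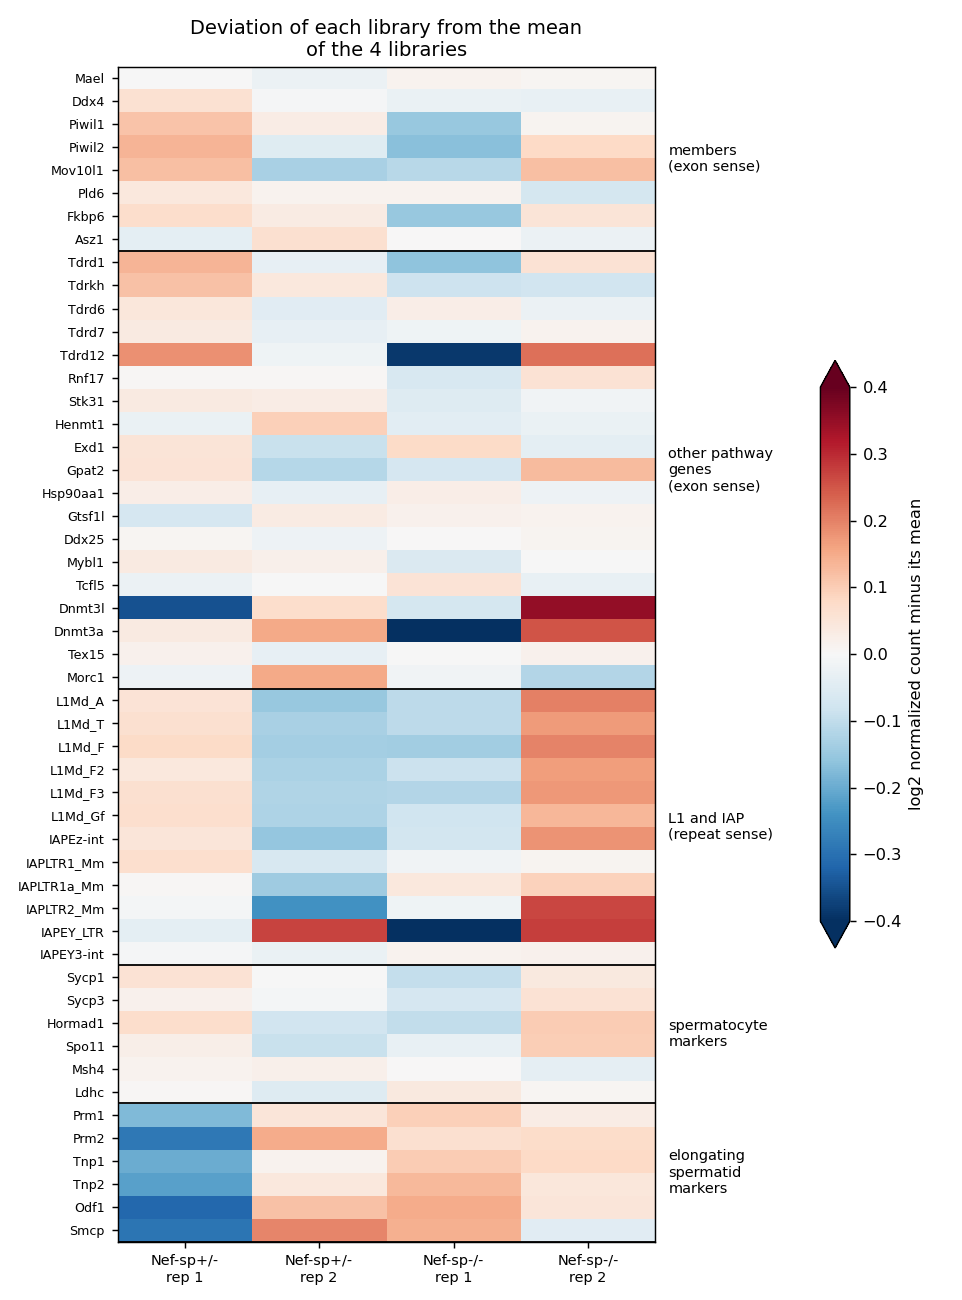
Deviation of each library's log2 normalized count from the mean of the 4 libraries, 1 row per gene or element, with red above and blue below that mean; the color scale ends at 0.4. In the members, *Piwil2* and *Mov10l1* are high in control replicate 1 and knockout replicate 2, as are 11 of the 12 L1 and IAP elements relative to the other library of their genotype, while the markers of elongating spermatids are low in control replicate 1.

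Leaving out control replicate 1, the library with fewer reads of elongating spermatid genes, the members' median log2 fold change was −0.03, and without control replicate 2 it was −0.10. Control replicate 1 was the highest of the 4 libraries in 6 of the 8 members, against 27.2% of all exon sense features. In *Mov10l1*, 1 of these, it was nearly tied with knockout replicate 2, at 2421.5 and 2420.9 normalized counts.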

How the data were processed

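The sample labels gave each library its genotype and replicate number. Reads that matched mm9 perfectly were retained by the authors, who used in-house tools, and the deposited values are raw read counts for each feature, annotation category and strand. Tool versions and how multiply matching reads were assigned are not given in the sources used here. Their mean, log2 fold change and p-value columns come from their own DESeq2 comparison and were not used, and 0 columns of per-sample values were left unmatched. The table holds 20659865 to 34442517 reads per library and only features with at least 5 reads in all.

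A fit per category used edgeR 4.0.16 (R 4.3.3) and its quasi-likelihood test on counts with TMM normalization, for features past its expression filter (minimum count 10), without covariates, with Benjamini-Hochberg adjustment within the category and a threshold of 0.05. Standard errors were derived from the F statistic. The labels do not say whether replicates are separate animals, so p-values measure the spread between these libraries. Exon lengths came from GENCODE vM1 on mm9, and older symbols were matched through RefSeq (GRCm38.p6, names only). DESeq2 1.42.0 and the other alternatives are given below. Figures used matplotlib 3.10.9.

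The members and lists were chosen with earlier results of these data known. Named were all members, of the other pathway genes those with an unadjusted p below 0.05, the 5 with the highest level per kb and the 3 with the largest absolute log2 fold change, and of L1 and IAP elements those with an unadjusted p below 0.05 and the 3 with most reads. *Henmt1*, *Mybl1*, *Tdrd1*, *Rnf17* and *Stk31* were added after their values were seen.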

Additional observations from a re-analysis of the deposited data

How the results depend on the processing

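No member had an adjusted p below 0.05 in exon sense reads under any alternative run. In edgeR, an unadjusted p below 0.05 was reached by 0 of 8 members in the reported fit, against 515 of all 10728 features. Among the alternatives with all libraries, it was reached by 1 member, *Piwil1*, with scaling by the total of the table, against 573 features, and with the crossed block, against 953. Fits without a library leave 1 library in a genotype, and their unadjusted p-values are not given here. The log2 fold change of *Piwil1* was −0.22 without knockout replicate 2 and −0.18 without control replicate 2, where that of *Piwil2* was −0.18. The members' median log2 fold change lay between −0.10 and −0.02 as each library was left out in turn. Of the 64 exon sense values of members with all libraries, 62 kept their direction. The exceptions came with scaling by the total of the table, −0.0133 for *Mov10l1* and −0.000262 for *Mael*. For introns, 61 of 64 did, except *Piwil1* (0.00412 with that scaling, 0.0102 in a single fit of all categories) and *Ddx4* (−0.00564 without a filter). *Tdrd6* turned to 0.00305 with the size factors of DESeq2, 0.00358 with DESeq2, 2.82e-04 with the replicate block and 3.7e-04 with the crossed block, and *Tdrd7* to 1.99e-04 with DESeq2. *Hsp90aa1* turned to −0.0189 with scaling by the total and −0.00294 in the single fit, and *Ddx25* to −0.0120 with scaling by the total. The causes were not tested.

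As each library was left out in turn, log2 fold changes in exon sense reads ran from −0.21 to 0.0312 for *Piwil2*, −0.11 to 0.14 for *Mov10l1*, −0.0736 to 0.0273 for *Asz1*, −0.20 to 0.00259 for *Fkbp6*, −0.0455 to 0.0476 for *Tdrd6*, −0.0386 to 0.0330 for *Tdrd7*, −0.0220 to 0.0352 for *Hsp90aa1*, −0.0173 to 0.0829 for *Gtsf1l*, −0.00203 to 0.0281 for *Ddx25* and −0.54 to 0.14 for *Dnmt3a*, and from 0.0165 to 0.50 for *Dnmt3l*. In intron sense reads they ran from −0.20 to 0.16 for *Piwil1*, −0.0857 to 0.0724 for *Ddx4*, −0.17 to 0.0153 for *Asz1*, −0.99 to −0.21 for *Piwil2* and −0.75 to −0.0685 for *Pld6*, and for repeats from −0.0662 to 0.24 for L1Md_A, −0.0792 to 0.20 for L1Md_T and −0.0506 to 0.20 for L1Md_F2.

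Of all features, 1 was called in exon sense reads, 2 with DESeq2 and 1 to 252 as each library was left out, with 252 without control replicate 2 and 41 without control replicate 1. In intron sense reads, 1 was called, and 0 with scaling by the total, without a filter, with DESeq2 or in the single fit. In exon antisense and intron antisense reads, 0 were called, and 0 to 3 as each library was left out. In repeat sense reads, 4 were called, 2 without a filter, 0 with scaling by the total or in the single fit, and 0 to 10 as each library was left out. Per kb of the longest transcript, *Fkbp6* had 424 and *Asz1* 231 counts.

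The labels do not say that equal replicate numbers share a litter or batch, and deviations of same-numbered libraries correlated at −0.0854 in exon sense and −0.215 in repeat sense reads. With the replicate block, 1 exon sense, 1 intron sense and 3 repeat sense features were called, and 0 members. A block with crossed numbers, chosen after seeing the data, called 99 exon sense (42 higher, 57 lower), 2 intron sense and 14 repeat sense features, and 0 members. Intron reads of *Piwil2*, *Asz1* and *Pld6* are too few to resolve a difference.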
